A study of Mus musculus with 14 samples.

Results

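The comparison described here set mouse epiblast stem cells after 3 days of treatment with MM401 (2 libraries, called day 3 below) against embryonic stem cells (ESC, 2 libraries). These 4 libraries of the 14 in the study were chosen by their labels alone, and no measured value entered the choice. MM401 is a small-molecule inhibitor of the histone methyltransferase MLL1, and the study used it to revert primed cells to the naive state. The starting epiblast stem cells (EpiSC, 2 libraries) are shown beside the comparison. The remaining 8 libraries, of cells at later passages, 2 of them labelled as without MM401, only shared the estimate of the spread between replicates.

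All 3 groups carried the same CD1/JF1 hybrid genotype, and both untreated lines were derived from blastocysts. Day 3 cells were EpiSC given 100 uM MM401 for 3 days in Knockout DMEM with serum replacement and LIF. The ESC grew in GMEM with 15% serum replacement and LIF on feeder cells, without MM401. The EpiSC grew in Knockout DMEM with 20% serum replacement and 10 ng/ml of basic FGF. Day 3 and ESC therefore differed in the inhibitor, the basal medium, the feeder layer and the history of the cells. Their libraries also differed in depth and in the share of ribosomal RNA, given below. None of these can be told apart in this comparison. The labels do not say how many lines or clones each group stands for. In these bulk libraries fewer cells of a type and less RNA per cell cannot be told apart either.

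Naive pluripotency is the state of the inner cell mass, held in culture by LIF acting through STAT3 and by transcription factors such as Nanog, Esrrb, Tfcp2l1 and the Klf family. Primed pluripotency is the state of the later epiblast, which depends on FGF and activin and raises de novo DNA methyltransferases while it prepares for germ layer formation. MLL1, encoded by Kmt2a, places methyl groups on lysine 4 of histone H3 in a complex with WDR5, and MM401 blocks the contact between these 2 proteins.

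The 2 day 3 libraries held 113221270 and 116086115 counts, and the 2 ESC libraries held 22527090 and 21050377. Of 24015 genes in the table, 16247 had enough counts to test. At an adjusted p under 0.05, 71.2% of all tested genes were called different between day 3 and ESC, 5778 higher (35.6%) and 5787 lower (35.6%), with a biological coefficient of variation of 0.037 between replicates. Calls were common, so counts of list members are read below against these shares and against fold size: 1159 genes were at least 2-fold higher at day 3 (7.13%) and 2077 at least 2-fold lower (12.8%). The median log2 fold change over all tested genes was 0.00. The share called was 76.6% between day 3 and EpiSC (38.7% higher, 37.9% lower) and 74.5% between ESC and EpiSC (37% higher, 37.5% lower), and these comparisons share libraries with the first. Among markers of feeder fibroblasts, which only the ESC culture was labelled to contain, 7 of 10 were higher at day 3 and 3 were lower, with a summed level of 4934 to 4999 CPM (counts per 1000000 in the library) at day 3 and 3810 to 3831 in ESC. A longer list of 25 fibroblast genes stood in the opposite order by its sum, 11123 and 11026 CPM at day 3 against 14991 and 14952 in ESC, with 11 genes higher, 11 lower and a median of 0.02. The ribosomal RNA gene Rn45s took 1.9% and 1.68% of counts at day 3 and 0.5925% and 0.5976% in ESC. The part of fibroblast or ribosomal RNA in the results below was not tested. Levels are CPM after scaling by edgeR, differences are log2 fold changes of day 3 minus ESC with their standard error after the ± sign, n is 2 libraries per group throughout, and a call means an adjusted p under 0.05 by edgeR's quasi-likelihood test with Benjamini-Hochberg adjustment over all tested genes.

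**Figure D1:**
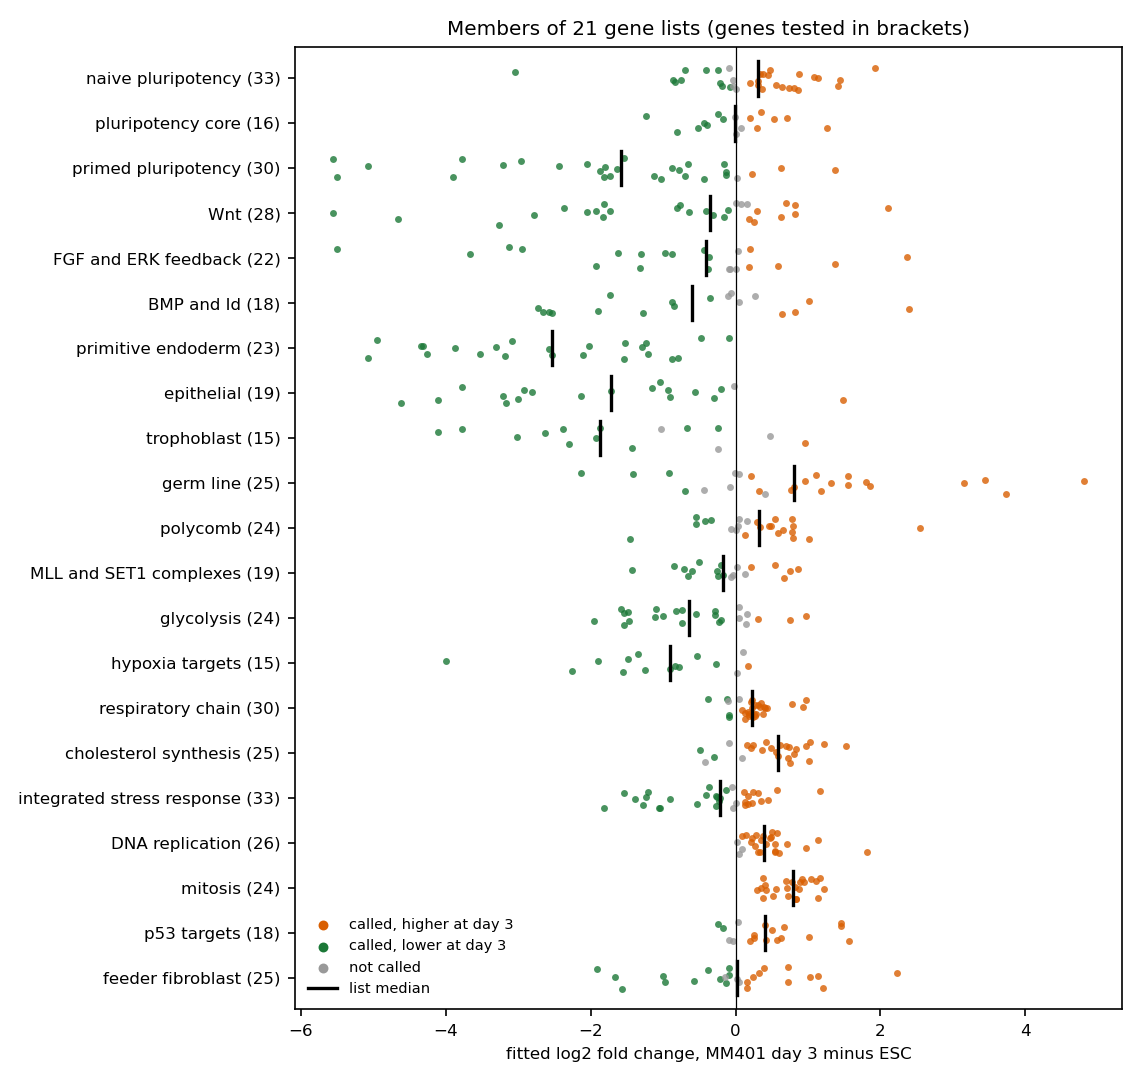
Each point is 1 gene of a list, placed at its fitted log2 fold change of day 3 minus ESC on the horizontal axis. Colour gives the call, the black bar the list median, and the brackets the number of genes tested; genes with 3 counts or fewer in either group are left out of the points. The mitosis points all lie right of 0, and the primitive endoderm points all lie left of it.

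More naive genes stood above the ESC level at day 3 than below it, and most differences were under 2-fold. The shares called were 57.6% higher and 30.3% lower, against 35.6% each over all genes. Of 33 naive genes tested, 19 were higher at day 3 than in ESC and 10 were lower, but only 5 and 1 of these differed by 2-fold or more. The list median was 0.32, against 0.00 over all genes. Relative to EpiSC the same list stood at a median of 2.79 in day 3 cells and 2.44 in ESC, values that share the EpiSC libraries. By order of the group means, day 3 lay above both untreated lines for 19 of the 33 genes, between them for 14 and below both for 0. Over all 16247 genes it lay above both for 5111, between for 6067 and below both for 5069.

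Nanog, a homeobox factor that stabilises self-renewal, was measured at 943 and 987 CPM at day 3, 414 and 391 in ESC and 288 and 282 in EpiSC. Both day 3 libraries lay more than 2-fold above both ESC libraries, a log2 difference of 1.26 ± 0.04 (edgeR, adjusted p = 6.16e-28). Prdm14, which represses de novo methylation and FGF signalling genes, stood at 135 and 129 CPM against 59.8 and 59.7 in ESC and 20.97 and 18.99 in EpiSC, a difference of 1.14 ± 0.04. Tbx3, Klf4 and Klf5, transcription factors acting downstream of LIF and in parallel to it, were also past the ESC level, by 0.74 ± 0.04, 0.87 ± 0.04 and 0.86 ± 0.07. The largest excesses in the list were in Nlrp4f (1.93 ± 0.07), Pecam1 (1.44 ± 0.04) and Khdc3 (1.42 ± 0.06). Nlrp4f and Khdc3 are known from the oocyte and cleavage embryo, and Pecam1 is an adhesion molecule of the inner cell mass.

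A second set of naive factors stood close to ESC or stopped short of it. Esrrb, an orphan nuclear receptor, was at 933 and 901 CPM at day 3 and 941 and 939 in ESC, against 319 and 313 in EpiSC. Its day 3 and ESC values were not called different (-0.04 ± 0.03; edgeR, adjusted p = 0.331). Fgf4, the embryo's own FGF ligand, was likewise not called (0.00 ± 0.04), at 319 and 316 CPM against 317 and 318. Tfcp2l1, a target of LIF and STAT3, reached 858 and 860.2 CPM from 57.8 and 59.6 in EpiSC and was -0.22 ± 0.04 on the log2 scale relative to ESC. Klf2 and the orphan nuclear receptor Nr0b1 were lower at day 3 by a larger margin, -0.75 ± 0.07 and -0.84 ± 0.04. Dppa3, a maternal factor that protects DNA from demethylation, was at 9.73 and 10.2 CPM at day 3, 9.46 and 7.97 in EpiSC and 17.6 and 18.7 in ESC. Its day 3 libraries lay apart from ESC (-0.86 ± 0.11) but were not called different from EpiSC (log2 difference 0.19 ± 0.12).

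The general pluripotency factors did not share a direction. Of 16 core genes, 6 were higher and 7 lower, and 1 in each direction differed by 2-fold. Sox2 was 0.53 ± 0.04 above ESC, at 867 and 863 CPM against 597 and 598. Pou5f1, which encodes OCT4, was below it by a log2 difference of -0.43 ± 0.04, at 1146 and 1130.0 CPM against 1518 and 1550.1. Lin28a, an RNA-binding protein that blocks let-7 maturation, was at 176 and 172 CPM at day 3, 414 and 406 in ESC and 505 and 502 in EpiSC. It was thus lower than in either line, and -1.24 ± 0.04 relative to ESC. Dppa2 and Dppa4, a pair of chromatin proteins of early embryos, were higher at day 3 by 0.72 ± 0.06 and 0.35 ± 0.05.

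**Figure D2:**
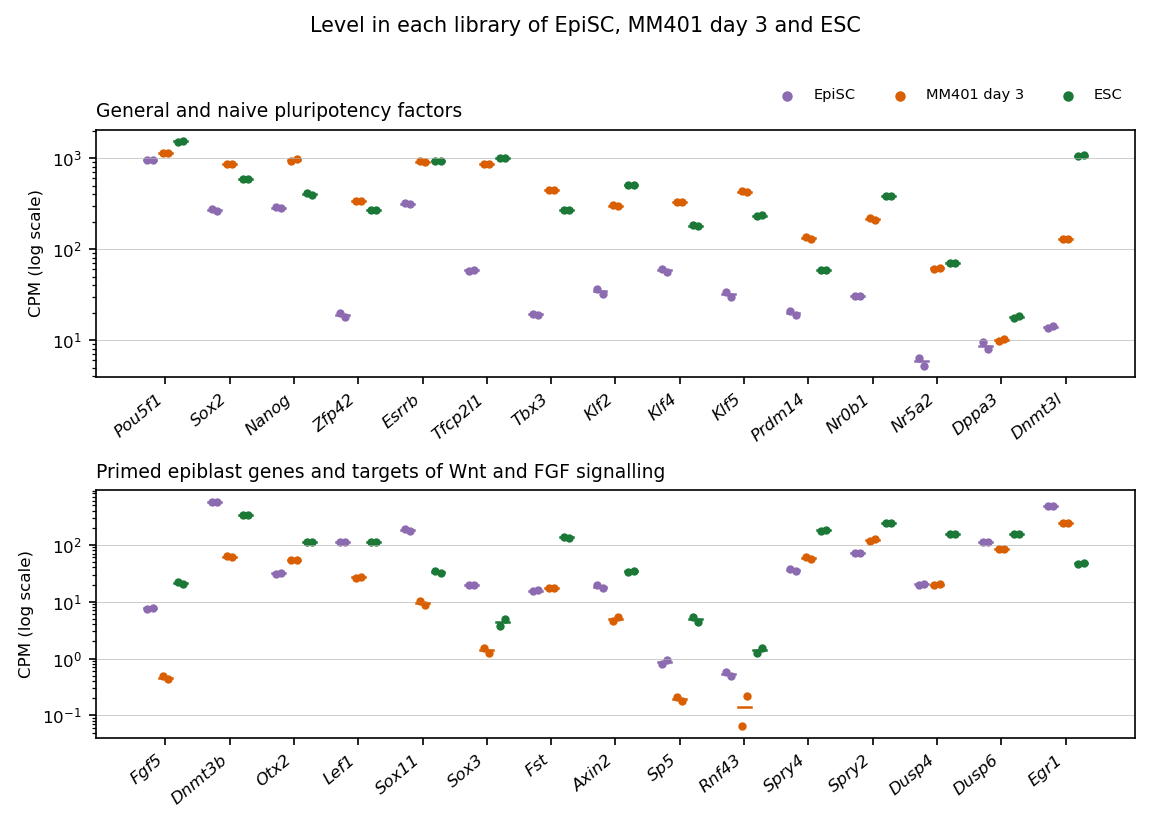
Each point is 1 library and each bar a group mean, with CPM on a log axis. Nanog, Tbx3 and Prdm14 sat above the ESC level at day 3, Dnmt3l sat between EpiSC and ESC, and Fgf5, Dnmt3b, Lef1 and Axin2 sat below both lines.

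Genes of the primed epiblast were low at day 3 not only against EpiSC but also against ESC. Of 30 primed genes tested, 21 of which also stand in other lists, 26 were lower at day 3 than in ESC, 18 of them by 2-fold or more, and 3 were higher; the median was -1.59. The same list stood at -2.04 in day 3 minus EpiSC and at 0.23 in ESC minus EpiSC. Its summed level was 2111 and 2105 CPM at day 3, 3456 and 3461 in ESC and 3879 and 3868 in EpiSC. By sum and by median the 2 untreated lines were nearer to each other than to day 3, although single members differed widely between them. Day 3 lay below both for 21 of the 30 genes, between them for 8 and above both for 1.

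Fgf5, a ligand of the postimplantation epiblast, was at 0.485 and 0.443 CPM at day 3, 22.02 and 20.2 in ESC and 7.55 and 7.68 in EpiSC. It was therefore higher in these ESC than in the EpiSC, and the day 3 libraries lay far below either, at -5.50 ± 0.20 against ESC (edgeR, adjusted p = 2.18e-25). Cer1, a secreted antagonist of Nodal and BMP, had 0 counts in both day 3 libraries and 317 in ESC, so it was at least 548-fold lower, taking 3 counts over the group as the floor. Otx2, a homeobox factor of the primed and formative epiblast, was at 53.98 and 55.02 CPM at day 3, between 31.3 and 31.9 in EpiSC and 112 and 110.0 in ESC. Foxa2, an endoderm factor, was lower by -5.07 ± 0.29, and Car4, a carbonic anhydrase, by -3.90 ± 0.11. The 3 primed genes that were higher at day 3 were Etv4 (1.38 ± 0.04), an ETS factor induced by FGF signalling, Sfrp2 (0.63 ± 0.08), a secreted Wnt modulator, and Zic5 (0.22 ± 0.08), whose call was lost without ESC replicate 2 (edgeR, adjusted p = 0.17) and without day 3 replicate 2 (0.0539). Sox4 was not called (0.02 ± 0.06).

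Among signalling pathways, Wnt and FGF genes were more often lower than higher at day 3 relative to ESC. Of 28 Wnt genes, 17 were lower (10 by 2-fold) and 8 higher (1 by 2-fold), with a median of -0.36. Axin2, a direct target and inhibitor of the pathway, was at 4.62 and 5.30 CPM at day 3, 33.7 and 34.5 in ESC and 19.6 and 17.3 in EpiSC, a difference of -2.78 ± 0.10 from ESC. The day 3 libraries lay below both lines. Other targets followed the same order: Lef1, a transcriptional partner of beta-catenin, was lower by -2.05 ± 0.06, Sp5 by -4.66 ± 0.37, the receptor ligase Rnf43 by -3.26 ± 0.49 and the antagonist Dkk1 by -5.56 ± 0.56, although Sp5, Rnf43 and Dkk1 stood at only a few CPM in ESC. Of the factors that carry the signal or repress targets, Tcf7l1 and Tcf7l2 were higher by 0.70 ± 0.04 and 0.83 ± 0.09, and the ligand Wnt3a, at 1.81 and 1.64 CPM, was higher by 2.11 ± 0.40. The receptor Lrp6 (0.01 ± 0.04) and the targets Nkd1 (0.16 ± 0.20) and Cdx1 (0.07 ± 0.17) were not called.

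In the FGF and ERK list of 22 genes, 13 were lower and 5 higher, 8 and 2 of them by 2-fold, with a median of -0.41; the 5 became 3 without day 3 replicate 1 or either ESC library. The ligands Fgf8 and Fgf15 were lower by -3.67 ± 0.28 and -3.13 ± 0.10, and the receptor Fgfr2 by -1.93 ± 0.11. Dusp4, a phosphatase that switches ERK off, was at 19.9 and 20.2 CPM at day 3, 19.9 and 20.7 in EpiSC and 155 and 154 in ESC. Its day 3 and EpiSC values were not called different (log2 difference -0.02 ± 0.07), and day 3 stood -2.95 ± 0.05 from ESC. The feedback inhibitor Spry4 lay between the 2 lines at 60.5 and 55.7 CPM, -1.62 ± 0.05 relative to ESC. Other ERK-responsive genes ran the opposite way. Egr1, an immediate early factor, was at 242 and 243 CPM at day 3, 46.6 and 47.9 in ESC and 481 and 472 in EpiSC, a difference of 2.36 ± 0.05, and Etv4, given above, was past both lines. Of 16 AP-1 and immediate early genes, 9 were higher and 7 lower, Fos among the higher (1.82 ± 0.08) and Jun among the lower (-0.45 ± 0.05).

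In the Nodal list 12 of 21 genes were lower and 8 higher, with a median of -0.23. The target Lefty1 and the cofactor Foxh1 were lower by -1.61 ± 0.04 and -1.48 ± 0.06, and the activin antagonist Fst by -2.96 ± 0.06. The inhibitor Smad7, at 309 and 316 CPM against 134 and 137 in ESC, was higher by 1.21 ± 0.04. Of 18 BMP and Id genes, 10 were lower (7 by 2-fold) and 4 higher, with a median of -0.60. The ligands Bmp4 and Bmp2 were lower by -2.58 ± 0.08 and -2.72 ± 0.22, the antagonists Nog and Grem1 by -2.66 ± 0.18 and -2.53 ± 0.08, and the target Id2 by -1.73 ± 0.08. Smad6, an inhibitor of BMP signalling, was at 33.1 and 33.7 CPM at day 3, 5.88 and 6.81 in ESC and 5.63 and 3.67 in EpiSC, and was higher than ESC by 2.40 ± 0.11.

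LIF was in the medium of both groups, and the LIF and STAT3 list was split, 10 of 21 genes higher and 9 lower with a median of 0.09. Among reported targets of LIF, 3 that lay past the ESC level were Bcl3 at 131 and 131 CPM against 37.4 and 35.8, Sgk1 at 642 and 639 against 186 and 188, and the kinase Pim1 at 316 and 324 against 135 and 141, while Tfcp2l1 and Myc were lower than in ESC. The differences were 1.84 ± 0.05, 1.78 ± 0.04 and 1.21 ± 0.04. The signal-transducing receptor chain Il6st and Stat3 itself were lower at day 3, by -1.13 ± 0.05 and -0.50 ± 0.04, and Myc by -1.27 ± 0.05. Jak1 (0.09 ± 0.04) and Lif (0.08 ± 0.06) were not called.

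The genes of de novo DNA methylation were lower at day 3 than in ESC. Dnmt3l, the catalytically inactive partner of the de novo methyltransferases, was at 129 and 130.0 CPM at day 3, 1069 and 1075 in ESC and 13.7 and 14.2 in EpiSC. The day 3 libraries had left the EpiSC level (log2 difference 3.21 ± 0.05) yet lay -3.05 ± 0.04 from ESC (edgeR, adjusted p = 1.98e-41), the lowest value in the naive list. The enzymes Dnmt3b and Dnmt3a, which fell from the EpiSC level, went past that of ESC. Dnmt3b was at 62.4 and 61.5 CPM at day 3, 336 and 334 in ESC and 561 and 573 in EpiSC, a difference of -2.44 ± 0.04 from ESC. Dnmt3a was at 72.6 and 71.8 CPM against 161 and 154 in ESC, a difference of -1.12 ± 0.05. All 3 de novo genes were thus lower at day 3 than in ESC with no overlap of libraries, an order that 42.5% of all tested genes showed. The maintenance methyltransferase Dnmt1 was higher by 0.29 ± 0.03, its partner Uhrf1 was not called (0.04 ± 0.03), and of the demethylating dioxygenases Tet2 was higher by 0.56 ± 0.04 and Tet3 lower by -0.61 ± 0.07. Tet1 was called by a narrow margin (0.09 ± 0.04) that was lost without day 3 replicate 2 (0.04; edgeR, adjusted p = 0.394) and without either ESC library. Of the 15 genes in the list as a whole, 6 were higher and 6 lower.

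The drug's target and its relatives were lower in transcript at day 3. Kmt2a was at 105 and 101 CPM at day 3, 162 and 162 in ESC and 140.4 and 155 in EpiSC, a difference of -0.65 ± 0.04 from ESC (edgeR, adjusted p = 3.5e-16). An inhibitor of a protein contact need not change its transcript, so this value is no check of the treatment. Of 19 genes of the MLL and SET1 complexes, 10 were lower and 5 higher, only Setd1b (-1.43 ± 0.04) by 2-fold, with a median of -0.17. The methyltransferases Kmt2d, Kmt2c and Kmt2b were lower by -0.85 ± 0.04, -0.59 ± 0.04 and -0.51 ± 0.04. The shared core subunits Wdr5, Rbbp5 and Dpy30 were higher instead, by 0.67 ± 0.03, 0.75 ± 0.05 and 0.54 ± 0.05, and Men1 was not called (0.01 ± 0.05). The methyltransferase genes have long transcripts, and the fold change fell with transcript length over all genes: with genes in 10 equal bins by length, the median was -0.31 in the longest bin and 0.12 in the shortest (Spearman's rho -0.145 across 15465 genes, which are not independent replicates). The same rho was -0.132 for day 3 against EpiSC and -0.0155 for ESC against EpiSC. Kmt2a, Kmt2b, Kmt2c, Kmt2d and Setd1b are in bin 10, the longest, and Setd1a is in bin 9. The part of length in their values, or in those of any other list or family of this report, was not tested.

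**Figure D3:**
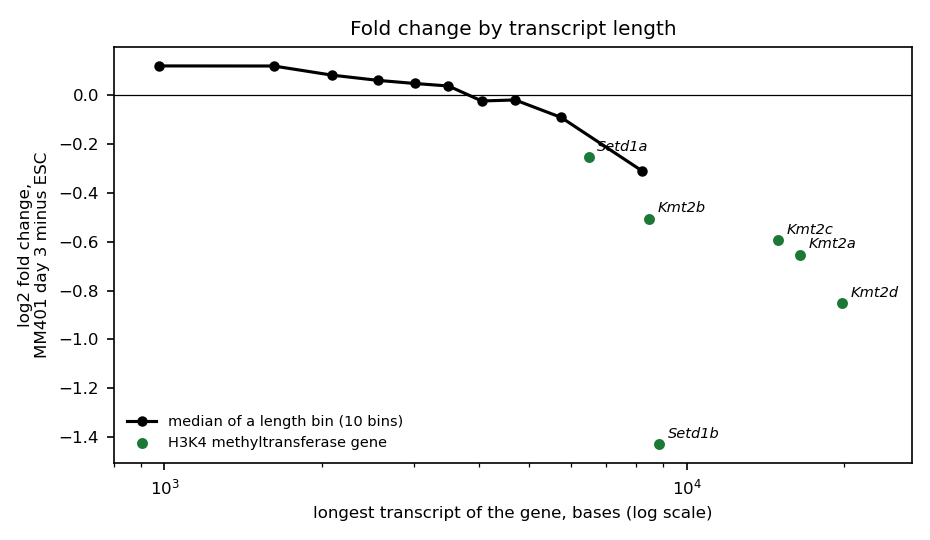
The black points give the median log2 fold change of day 3 minus ESC in each of 10 bins of genes by longest transcript, and the green points the 6 H3K4 methyltransferase genes at their own lengths, on a log axis. Setd1a at -0.25 lies closest to the medians, and Setd1b at -1.43 lies farthest below them.

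Polycomb genes, whose products silence developmental genes, were more often higher at day 3: 14 of 24 were higher and 5 lower, with a median of 0.32. Phf19, an accessory subunit that recruits the H3K27 methyltransferase complex, was at 141 and 142 CPM at day 3, 25.1 and 23.2 in ESC and 35.3 and 39.5 in EpiSC. The day 3 libraries lay far above both lines, 2.55 ± 0.06 from ESC. Aebp2, Ezh2 and Rnf2 also lay above both lines in every library, by 1.01 ± 0.04, 0.78 ± 0.04 and 0.78 ± 0.04 relative to ESC. Kdm2b, which brings a polycomb complex to CpG islands, was lower by -1.45 ± 0.04, and Jarid2 and Cbx7 by -0.42 ± 0.03 and -0.55 ± 0.04. Of 37 clustered Hox genes tested, 14 were higher (9 without ESC replicate 2) and 3 lower, nearly all at a few CPM or less. The share higher, 37.8%, was near the 35.6% of all genes, and the share lower, 8.11%, was under the 35.6% of all genes. Hoxc11 had 166 counts at day 3 and 2 in ESC, a depth-adjusted ratio of 15.99 with a 95% counting interval of 4.36 to 133.

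Every primitive endoderm gene tested was lower at day 3. This extraembryonic lineage of the blastocyst lays down basement membrane and takes up nutrients through cubilin and megalin. All 23 tested genes of the list were lower at day 3 than in ESC, 19 of them by 2-fold or more, with a median of -2.54. Day 3 lay between EpiSC and ESC for 19 of the 23 genes and below both for 4. With genes at 0 counts in a group set to their bound, the list stood at a median of 0.62 in day 3 minus EpiSC and 3.85 in ESC minus EpiSC, so most of the excess of ESC over EpiSC was not present at day 3.

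Gata4, a master regulator of the lineage, was at 5.10 and 4.81 CPM at day 3, 56.1 and 58.8 in ESC and 0.204 and 0.660 in EpiSC. Gata6, which acts before it, was at 11.2 and 10.1 CPM at day 3, 32.3 and 29.2 in ESC and 2.20 and 1.65 in EpiSC. Both genes were above EpiSC and below ESC in every library, by -3.53 ± 0.11 and -1.53 ± 0.09 against ESC (edgeR, adjusted p = 1.65e-27 and 8.18e-19). Lama1, a laminin chain of embryonic basement membrane, was at 209 and 206 CPM at day 3 against 1205 and 1207 in ESC and 20.4 and 20.9 in EpiSC, a difference of -2.54 ± 0.04. Its partner chains Lamb1 and Lamc1 and the collagens Col4a1 and Col4a2, chosen after their values were seen, were lower by -1.21 ± 0.03, -1.24 ± 0.04, -2.10 ± 0.04 and -2.03 ± 0.04. The nutrient receptor genes Cubn, Amn and Lrp2 were lower by -4.95 ± 0.15, -4.26 ± 0.22 and -3.88 ± 0.07. Lrp2 also lay below EpiSC, at 10.5 and 10.2 CPM against 60.4 and 58.7. The water channel gene Aqp8 was lower than in ESC by -4.31 ± 0.13.

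**Figure D4:**
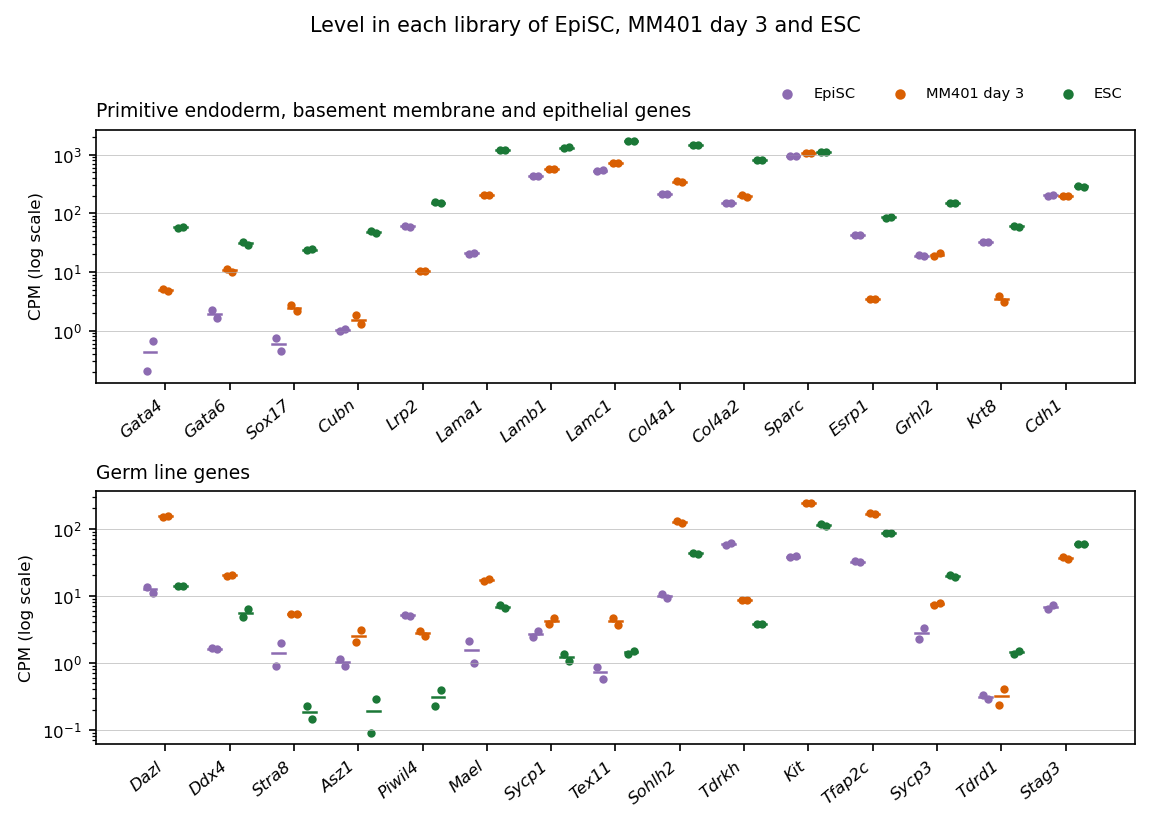
Each point is 1 library and each bar a group mean, with CPM on a log axis. Gata4, Gata6 and Lama1 lay between EpiSC and ESC at day 3, Esrp1 and Krt8 below both lines, and Dazl, Ddx4, Stra8 and Kit above both.

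Epithelial genes were low against both lines. Of 19 tested, 6 of which also stand in other lists, 17 were lower at day 3 than in ESC (12 by 2-fold) and 1 was higher. The median was -1.71 against ESC and -1.17 against EpiSC, and day 3 lay below both lines for 14. Esrp1, a splicing factor of epithelial cells, was at 3.42 and 3.53 CPM at day 3, 84.4 and 85.9 in ESC and 42.8 and 42.4 in EpiSC, a difference of -4.61 ± 0.09 from ESC. The simple-epithelium keratins Krt8, Krt18 and Krt19 were lower by -4.11 ± 0.10, -3.78 ± 0.07 and -3.17 ± 0.09, and the junction and polarity genes Cldn6 and Crb3 by -3.21 ± 0.08 and -3.00 ± 0.17. In all 5 the day 3 libraries lay below both lines. The exception was St14, a membrane protease, at 130.1 and 128 CPM against 46.5 and 45.96 in ESC (1.48 ± 0.05), and the desmosome gene Dsp was not called (-0.02 ± 0.06). Mesenchymal genes as a list did not show the opposite shift: 9 of 16 were lower, 5 of them by 2-fold, Snai1 (-1.29 ± 0.07) and Snai2 (-1.48 ± 0.14) among them. The other direction held 5 genes, 1 of them by 2-fold, at 2.48.

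Trophoblast, mesoderm and blood and endothelial genes were also more often lower than higher. The trophoblast list has 17 members, 7 of which also stand in other lists, so its counts partly repeat theirs. Of its 15 tested genes 11 were lower and 1 was higher, Tfap2c (0.95 ± 0.05), which also acts in germ cells and naive pluripotency. In the list Peg10, a placental gene of retrotransposon origin, went from 779.8 and 771 CPM in ESC to 144 and 154 at day 3, close to 137 and 129.6 in EpiSC, while Gata3 and Elf5 were not called (-0.24 ± 0.21 and -1.02 ± 0.89). Of 14 mesoderm genes 8 were lower and 2 higher, Eomes being lower by -1.53 ± 0.09. Of 12 blood and endothelial genes 11 were lower, and their summed level was 76.2 and 71.5 CPM at day 3 against 147 and 143 in ESC. Neuroectoderm genes, at 13 tested, split into 5 lower and 3 higher. Their summed level of 161 and 159 CPM was close to the 194 and 191 of ESC and far under the 719 and 713 of EpiSC.

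In contrast to the somatic lists, the listed genes of the germ line were mostly higher at day 3 than in ESC. Of 25 genes, 16 were higher, 11 of them by 2-fold, and 4 were lower, with a median of 0.80. Day 3 lay above both untreated lines for 16 genes and between them for 9. Their summed level was 1034 and 1026 CPM at day 3, 593 and 588 in ESC and 217 and 219 in EpiSC. Dazl, an RNA-binding protein of germ cells, was at 149 and 156 CPM at day 3, 14.1 and 13.97 in ESC and 13.7 and 11.1 in EpiSC. The 2 untreated lines were at about the same level, and day 3 stood 3.45 ± 0.08 above ESC (edgeR, adjusted p = 1.92e-26). Ddx4, the helicase also called Vasa, was at 19.8 and 20.2 CPM at day 3, 4.75 and 6.33 in ESC and 1.63 and 1.61 in EpiSC, a difference of 1.86 ± 0.11. Stra8, the retinoic acid target that precedes meiosis, reached 5.35 and 5.34 CPM from 0.898 and 1.94 in EpiSC and was at 0.226 and 0.145 in ESC, a difference of 4.82 ± 0.33. Asz1 and Piwil4, which silence transposons with small RNAs, and Sycp1, a component of the meiotic synaptonemal complex, were higher by 3.73 ± 0.42, 3.16 ± 0.34 and 1.81 ± 0.21. Chosen after their values were seen, the transcription factor Sohlh2 was at 128 and 122 CPM against 43.8 and 41.6 in ESC, and Mael at 16.5 and 17.8 against 7.19 and 6.57.

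The 4 lower genes were Tdrd1 (-2.13 ± 0.37), Sycp3 (-1.41 ± 0.10), Prdm1 (-0.92 ± 0.07) and Stag3 (-0.70 ± 0.05). Of these, Sycp3, Prdm1 and Stag3 lay between EpiSC and ESC in every library. Outside the list and chosen after their values were seen, the relatives of Tdrd1 named Tdrd5 and Tdrd12 were also lower, by -3.39 ± 0.19 and -1.44 ± 0.07. Sycp1 and Sycp3, which build the same meiotic structure, were both above EpiSC at day 3 and stood on opposite sides of ESC: Sycp3 was at 7.16 and 7.67 CPM at day 3, 20.6 and 18.9 in ESC and 2.24 and 3.26 in EpiSC. Promoters of germ line genes are known to carry the E-box CACGTG, a site for MAX and its partner MGA in a polycomb complex that silences these genes in embryonic cells. In RefSeq windows of the 250 bases before each start site (build GRCm38.p6), CACGTG, a palindrome on both strands, was present in 6.86% of 27025 genes and in 11 of the 22 listed germ line genes with a window. Of those 22, it was present in 6 of 13 genes that were higher, 3 of 4 that were lower and 2 of 5 not called. Among all tested genes with a window the box was in 9.56%. By call it was in 8.89% of the higher, 11.3% of the lower and 8.24% of the genes not called. The windows of 3 genes are shown because the box occurs in members above and below the ESC level at day 3, with the box in capitals: Ddx4 (chr13:112652311-112652560, minus strand) and Sycp1 (chr3:102936101-102936350, minus strand), both higher than in ESC, and Sycp3 (chr10:88459337-88459586, plus strand), lower than in ESC.
Ddx4: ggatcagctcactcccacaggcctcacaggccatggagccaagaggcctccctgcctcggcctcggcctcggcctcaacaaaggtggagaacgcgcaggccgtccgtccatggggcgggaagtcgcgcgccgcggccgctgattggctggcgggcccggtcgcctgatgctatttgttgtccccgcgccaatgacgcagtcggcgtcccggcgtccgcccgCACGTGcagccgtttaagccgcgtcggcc
Sycp1: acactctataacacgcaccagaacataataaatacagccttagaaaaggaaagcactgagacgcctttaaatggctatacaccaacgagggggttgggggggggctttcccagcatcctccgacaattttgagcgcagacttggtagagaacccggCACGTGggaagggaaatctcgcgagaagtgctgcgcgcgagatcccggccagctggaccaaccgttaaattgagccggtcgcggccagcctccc
Sycp3: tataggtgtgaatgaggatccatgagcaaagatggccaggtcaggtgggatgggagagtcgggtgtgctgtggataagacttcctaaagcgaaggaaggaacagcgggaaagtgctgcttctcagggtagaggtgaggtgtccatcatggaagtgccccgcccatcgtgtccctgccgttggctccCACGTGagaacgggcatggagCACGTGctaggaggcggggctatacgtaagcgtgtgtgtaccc
The box lay 29 bases before the start in Ddx4, 94 in Sycp1, and 64 and 43 in Sycp3.

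Genes of the 2-cell and cleavage stages gave no common direction, 5 of 11 higher and 1 lower with a median of 0.01, at levels of a few CPM for most. Pramel6 and Obox6 were higher by 3.75 ± 0.26 and 2.37 ± 0.20, and Zscan4d and Dux were not called (-0.51 ± 0.39 and -0.99 ± 0.77). Usp17la, Zscan4d and Dux belong to families of near-identical copies, and their counts are uncertain because the treatment of reads that match several copies is not given. Of surface proteins used to sort pluripotent states, 8 of 13 were higher and 5 lower. Icam1, the stem cell factor receptor Kit and alkaline phosphatase Alpl were past the ESC level by 1.80 ± 0.04, 1.11 ± 0.05 and 0.92 ± 0.04. Cd24a, which marks primed cells, was at 6.64 and 5.59 CPM at day 3, 46.9 and 43.4 in ESC and 86.00 and 86.6 in EpiSC, and Podxl and Prom1 were also below both lines.

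Among metabolic genes, a pair that responds to glucose stood far above ESC at day 3. Txnip, an arrestin-like protein that limits glucose uptake and is induced by glucose through MondoA and ChREBP, was at 212 and 212 CPM at day 3, 6.60 and 7.06 in ESC and 330.0 and 324 in EpiSC. The day 3 libraries lay below EpiSC but nearer to it than to ESC, and stood 4.96 ± 0.06 above ESC (edgeR, adjusted p = 8.64e-41). Its relative Arrdc4, chosen after its values were seen because it is controlled by the same factors, was at 54.1 and 55.01 CPM at day 3, 10.4 and 9.33 in ESC and 94.8 and 85.9 in EpiSC, a difference of 2.46 ± 0.08. These factors bind a carbohydrate response element, a pair of CACGNG boxes on either side of any 5 bases. On either strand of the 250-base windows it was present in 0.0518% of genes (14 of 27025). Among tested genes with a window the share was 0.0921%, with 0.0910% of those higher at day 3 and 0.118% of those lower. The part of the element in the level of Txnip was not tested. The Txnip window (chr3:96557707-96557956, plus strand, RefSeq, GRCm38.p6) is shown because it holds 1 such element, in capitals, 85 bases before the start.
Txnip: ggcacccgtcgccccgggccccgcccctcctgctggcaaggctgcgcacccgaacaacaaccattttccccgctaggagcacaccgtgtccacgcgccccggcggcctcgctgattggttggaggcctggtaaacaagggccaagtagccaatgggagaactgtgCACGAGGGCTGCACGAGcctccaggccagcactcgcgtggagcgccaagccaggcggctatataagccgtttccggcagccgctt

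Glycolytic genes were lower at day 3: 17 of 24 were lower than in ESC, 9 of them by 2-fold, and 3 were higher, with a median of -0.65. Their summed level was 8071 and 7971 CPM at day 3, 13817 and 13760 in ESC and 7022 and 7114 in EpiSC. Ldha, which makes lactate, was at 363 and 355 CPM at day 3, 1048 and 1036 in ESC and 616 and 623 in EpiSC. The day 3 libraries lay below both lines, -1.54 ± 0.03 from ESC. The lactate exporter Slc16a3 and the phosphofructokinase Pfkl were lower by -1.95 ± 0.04 and -1.54 ± 0.04 and also below both lines, while Pfkp (-1.46 ± 0.03) and the pyruvate dehydrogenase kinase Pdk1 (-1.49 ± 0.04) lay between them. The glucose transporters Slc2a1 and Slc2a3, chosen after their values were seen, were lower by only -0.22 ± 0.03 and -0.28 ± 0.03. Hk1 and Pdk3 were higher by 0.75 ± 0.04 and 0.97 ± 0.06, and Hk2 was not called (0.04 ± 0.04). Gapdh was read at only 10.01 and 8.50 CPM, and its many processed copies make that value uncertain.

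Of 15 targets of hypoxia-inducible factor, a list that shares Pdk1 with glycolysis, 12 were lower and 1 higher, with a median of -0.91. Car9 was at 1.48 and 1.56 CPM at day 3, 25.7 and 22.95 in ESC and 5.18 and 5.33 in EpiSC, and Ndrg1 at 43.97 and 41.97, 206 and 207 and 26.9 and 26.3. Both were lower at day 3 than in ESC (-4.00 ± 0.14 and -2.26 ± 0.04), Car9 below both lines and Ndrg1 between them. Adm, Bnip3 and Egln3 followed (-1.90 ± 0.06, -1.55 ± 0.06 and -1.34 ± 0.05), Vegfa was higher by 0.18 ± 0.04, and Hif1a itself was not called (0.02 ± 0.04). Respiratory chain genes ran the other way by small margins, 24 of 30 higher and 4 lower, none by 2-fold, with a median of 0.23; the 4 became 1 or 2 when any 1 of the 4 libraries was left out. Cox5a and Cox4i1 of complex IV were higher by 0.79 ± 0.04 and 0.40 ± 0.05, and Atp5g1 of the ATP synthase by 0.97 ± 0.09.

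Cholesterol synthesis genes were higher than in ESC and lower than in EpiSC. Of 25 tested, 20 were higher and 2 lower, with a median of 0.58, and day 3 lay between the lines for 19. Dhcr7, the last enzyme of the pathway, was at 66.9 and 66.7 CPM at day 3, 28.8 and 28.6 in ESC and 159.8 and 162 in EpiSC. Sc5d and Hsd17b7 kept the same order (1.01 ± 0.07 and 1.03 ± 0.10 against ESC), Pmvk was past both lines (1.53 ± 0.05), and Lss was below both (-0.49 ± 0.05). Of 14 fatty acid synthesis genes 9 were higher and 3 lower, with a median of 0.48, among them Elovl5 (1.28 ± 0.04) and Scd1 (0.55 ± 0.04) higher and Fasn (-0.56 ± 0.04) and Acaca (-0.40 ± 0.08) lower. Tdh, the threonine dehydrogenase on which mouse ESC depend, was at 298 and 297 CPM at day 3 against 489 and 473 in ESC and 44.2 and 45.5 in EpiSC, and so had risen most of the way (-0.69 ± 0.03 from ESC).

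Stress lists did not move as one. In the integrated stress response 18 of 33 genes were lower (8 by 2-fold) and 12 higher (1 by 2-fold), with a median of -0.22. The lower members included the regulators Ddit3 and Sesn2 and the secreted Stc2 (-1.24 ± 0.07, -1.20 ± 0.05 and -1.81 ± 0.06). Higher members included the amino acid synthesis genes Gpt2, Pycr1 and Psph (0.57 ± 0.04, 0.45 ± 0.05 and 0.35 ± 0.05), and the largest rise in the list was 1.17. The genes named do not stand for all members of either role. Relative to EpiSC the list stood at a median of 1.08 at day 3 and 1.18 in ESC. Chaperones of the endoplasmic reticulum were higher in 14 of 18 cases and lower in 2, with Sdf2l1 (1.18 ± 0.06) and Manf (0.91 ± 0.04) in front and Herpud1 (-1.31 ± 0.05) as the main exception. Cytosolic heat shock genes were higher in 9 of 13 cases, none by 2-fold, and the stress-inducible copies Hspa1a and Hspa1b were lower (-0.82 ± 0.17 and -0.66 ± 0.13). Targets of p53 were higher in 13 of 18 cases, with Fas (1.57 ± 0.16), Sesn1 (1.46 ± 0.07) and Perp (1.45 ± 0.07) highest, while Trp53 itself was not called (-0.03 ± 0.03).

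Cell division genes were higher at day 3 without an exception in the mitosis list. All 24 mitosis genes were higher than in ESC, 5 by 2-fold, with a median of 0.80, and day 3 lay above both untreated lines for 17 and between them for 7. Ccnb2, a mitotic cyclin, was at 235 and 231 CPM at day 3, 103 and 108 in ESC and 177 and 175 in EpiSC, a difference of 1.14 ± 0.04 (edgeR, adjusted p = 3.78e-26). Plk1 and Ube2c, a mitotic kinase and the ubiquitin carrier of the anaphase complex, were higher by 0.94 ± 0.04 and 1.04 ± 0.04. Cdk1, the partner of Ccnb2 chosen after its values were seen, was at 314 and 308 CPM against 167 and 169 in ESC (0.89 ± 0.03). Of 26 DNA replication genes, 23 were higher and none of the other 3 was called, with a median of 0.40. Rrm2, which makes deoxynucleotides, led with 502 and 509.6 CPM against 145 and 143 in ESC and 348 and 350.5 in EpiSC (1.81 ± 0.04).

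Promoters of mitotic genes are known for CCAAT boxes bound by NF-Y and for the element TTTGAA bound by the MuvB complex. Searched on both strands of the same windows, CCAAT was present in 37.5% of 27025 genes and in 18 of 20 mitosis genes with a window, and TTTGAA in 18.3% and in 8 of 20. Among all tested genes with a window the shares were 39.7% for CCAAT and 12.7% for TTTGAA. All 20 mitosis genes were higher at day 3, so the motifs do not divide the list. The windows of Ccnb2 (chr9:70421555-70421804, minus strand) and Cdk1 (chr10:69352913-69353162, minus strand), from RefSeq on GRCm38.p6, are shown as members that hold both motifs, which are in capitals (ATTGG is CCAAT on the other strand).
Ccnb2: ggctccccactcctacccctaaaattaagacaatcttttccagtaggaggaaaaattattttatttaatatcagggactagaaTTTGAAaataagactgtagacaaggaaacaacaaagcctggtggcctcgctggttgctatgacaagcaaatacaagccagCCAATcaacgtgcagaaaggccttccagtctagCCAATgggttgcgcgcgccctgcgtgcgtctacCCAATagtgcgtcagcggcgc
Cdk1: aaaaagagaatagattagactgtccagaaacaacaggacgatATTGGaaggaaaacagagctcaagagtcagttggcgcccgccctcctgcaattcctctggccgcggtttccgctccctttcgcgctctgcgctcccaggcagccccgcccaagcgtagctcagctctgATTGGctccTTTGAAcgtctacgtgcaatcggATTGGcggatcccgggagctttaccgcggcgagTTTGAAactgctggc
Ccnb2 held 3 CCAAT boxes and 1 TTTGAA element, and Cdk1 held 3 and 2.

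Regulators of the G1 phase had no common direction, 7 of 18 higher and 8 lower, the latter 4 without ESC replicate 1 and 5 without day 3 replicate 2. Ccnd3 and Ccne1 were higher by 1.45 ± 0.04 and 1.27 ± 0.04, and the inhibitor Cdkn2a was lower by -1.06 ± 0.07. Cdkn1c was at 9.55 and 8.38 CPM at day 3, 14.96 and 14.9 in ESC and 104 and 103 in EpiSC, so that both cultures with LIF lay far under EpiSC. Cytosolic ribosomal protein genes were lower in 20 of 34 cases and higher in 4 (1 without ESC replicate 1), with a median of -0.23. These counts are uncertain too, since the treatment of reads that match several copies is not given.

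Imprinted genes, expressed from 1 parental allele, were lower in 19 of 29 cases and higher in 6, with a median of -0.58, and day 3 lay below both lines for 17. Magel2, Impact and Peg3 were lower by -3.75 ± 0.39, -1.28 ± 0.04 and -1.10 ± 0.05. Kcnq1ot1, a long non-coding RNA that silences its cluster, was at 54.4 and 54.7 CPM at day 3, 8.41 and 8.80 in ESC and 12.2 and 12.1 in EpiSC, far above both lines (2.67 ± 0.08). Igf2 and Slc38a4 were also higher (1.07 ± 0.04 and 1.33 ± 0.04). Xist, the RNA that coats the inactive X chromosome, was at 35.5 and 42.6 CPM at day 3, 30.2 and 31.6 in ESC and 620.3 and 624 in EpiSC. It was therefore near the ESC level (0.34 ± 0.11; edgeR, adjusted p = 0.0142), although strand was not stated and reads of its antisense partner Tsix cannot be told apart. Without ESC replicate 1 this difference was not called (edgeR, adjusted p = 0.0841). Over 608 X-linked genes, 195 were higher and 234 lower, with a median of -0.03.

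Restricted to genes that reached 10 CPM at day 3 or in ESC, the largest rises were mostly of genes near silent in ESC. 1700013H16Rik was at 105 and 102 CPM at day 3, 2.22 and 1.84 in ESC and 19.7 and 18.7 in EpiSC (5.67 ± 0.11). Foxn4, a forkhead factor of retina and spinal cord, was at 36.4 and 36.4 CPM against 0.633 and 0.918 in ESC (5.56 ± 0.16). Crygc and Crygd, lens crystallins that share sequence with each other, were at 29.3 and 29.6 and 15.3 and 16.2 CPM and under 2 CPM in both untreated lines. The day 3 libraries thus lay past both lines in all 4 of these genes. Aspa, Kank4, B3gnt3, Gm13889, Ttll6 and Calcoco2 did so as well, with differences from 3.45 for Calcoco2 to 4.82 for Aspa. Txnip and the chemokine Ccl11 (3.52 ± 0.15) completed the 12 and lay between EpiSC and ESC.

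Among the same genes, those reaching 10 CPM at day 3 or in ESC, the largest fall was of Trh, the precursor of thyrotropin-releasing hormone, at 5.55 and 4.51 CPM at day 3, 504 and 501 in ESC and 337 and 342 in EpiSC. Both untreated lines held it at a similar level, and day 3 stood -6.64 ± 0.06 from ESC (edgeR, adjusted p = 1.83e-45). Vrtn, a regulator of vertebral number, was at 0.439 and 0.372 CPM against 16.5 and 16.5 in ESC and 58.95 and 60.1 in EpiSC, and the adaptor Irs4 at 0.714 and 0.372 against 15.3 and 15.8 and 72.9 and 71.4. In these 3 genes both untreated lines expressed the transcript. The day 3 cells nearly did not express Vrtn and Irs4, and held Trh at a low level. The others of the 12, Itih2, Fgf5, Gjb2, Fcrls, Foxa2, Sspo, Myl3, Cubn and Enpep, had differences from -5.54 for Itih2 to -4.77 for Enpep. Apart from Fgf5 and Sspo, these stood under 3 CPM in EpiSC as well as at day 3.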

How the data were processed

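RNA was measured by single-end sequencing of TruSeq libraries in 14 mouse samples of 7 groups, 2 per group. The deposited values are whole-number counts per gene, per the file headers. TopHat2, Subread, DESeq and the build mm9 are listed, with no version or role, in the submitters' processing notes. Neither strand nor the handling of multiply matching reads is given there. The 2 columns that matched no sample label were not used. Gene names damaged into dates (27) took at most 0.254% of counts.

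Genes passing edgeR's filter (16247) were fitted over all 14 libraries with the quasi-likelihood test (R 4.3.3, edgeR 4.0.16) and TMM scaling, after a check on simulated data. P-values were adjusted by the Benjamini-Hochberg method over all tested genes and called under 0.05. CPM use the scaled library sizes. The design text calls replicates biological duplicates; where 2 libraries came from 1 culture, p-values measure technical spread only. The comparison, the 43 gene lists and the named genes were chosen with earlier results of these data known. Many lists share members with others, so their counts are not independent of each other. Genes were named as a fixed panel, the 12 largest rises and falls at 10 CPM or more, and the leading 6 called members of each list, up to 4 of the opposite direction and 4 not called; others are said to be chosen after their values were seen, and a few named by the rule are not reported here. Replicate numbers did not pair samples: the correlation of replicate differences was -0.004 between day 3 and ESC. Lengths are those of the longest GENCODE transcript of each gene, and promoter windows are from RefSeq (GRCm38.p6). Both were matched by symbol, so no coordinate was taken from the deposited files. Alternatives were other scalings (RLE, total counts, upper quartile), no filter, DESeq2 1.42.0, smaller fits, a replicate block, a test against 1.5-fold, thinning to 20831588 counts, leaving out Rn45s and leaving out each library.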

Additional observations from a re-analysis of the deposited data

How the results depend on the processing

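The count of genes called between day 3 and ESC was 11565. It was 11560 with RLE scaling, 11537 with total counts, 11533 with upper quartile scaling, 11740 with no filter, 11022 with DESeq2, 11686 in a fit of the 4 libraries alone and 11015 after thinning to the depth of the shallowest library. With the replicate number as a block it was 11552, and no count of calls, over all genes or in a list, moved by over 1.5 times under that block. Leaving out each library in turn gave 10310 to 11231. Tested against a change of 1.5-fold, 4225 genes were called, 1737 higher and 2488 lower, and the counts beside it were 5705 for day 3 against EpiSC and 5673 for ESC against EpiSC. Among named genes, 1 sign reversed: Kmt2a in ESC against EpiSC was -0.020 with total counts (edgeR, adjusted p = 0.698) and 0.13 in the main result. Some counts of list members also moved by over 1.5 times under other settings, beside those given in the report for left-out libraries. FGF genes called higher went from 5 to 3 with total counts, upper quartile scaling, DESeq2 and thinning, glycolysis genes higher from 3 to 6 in the fit of 4 libraries, p53 targets lower from 2 to 4 and fatty acid genes lower from 3 to 5 with upper quartile scaling, respiratory chain genes lower from 4 to 1 with no filter and to 2 in the fit of the CD1/JF1 groups, and ribosomal protein genes higher from 4 to 2 with DESeq2 and upper quartile scaling. Where 1 gene of a list was called in a direction, another setting gave 2 for trophoblast genes higher (without ESC replicate 2) and hypoxia targets higher (no filter, the fit of 4 libraries, or without day 3 replicate 2), and 0 to 2 for 2-cell genes lower. Esrrb, not called in the main result, was called lower with upper quartile scaling (-0.09; edgeR, adjusted p = 0.0164). The other scalings moved the median of all genes by at most 0.05 for day 3 against ESC. Total counts moved it by -0.17 for day 3 against EpiSC, where 38.6% of called genes were then higher (6292 higher and 6151 lower with TMM), and by -0.15 for ESC against EpiSC, where 40.3% were (6015 higher and 6088 lower with TMM), so differences from EpiSC carry that shift. Depth limits mainly the ESC side, where genes under about 1 CPM rest on few counts.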

Other observations

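Families were grouped by gene symbol after the values were seen, so the counts below describe these libraries only. All 5 gamma crystallins tested were higher at day 3 than in ESC, with a summed level of 52.3 and 53.3 CPM at day 3, 3.16 and 3.04 in ESC and 0.938 and 0.413 in EpiSC. These genes encode lens proteins and share sequence with each other. All 7 genes of the X-linked Xlr family, known from lymphocytes and germ cells, were also higher, with sums of 29.8 and 28.4 CPM at day 3 against 7.59 and 7.35 in ESC. Because members are near-identical copies, reads cannot be assigned to single genes with certainty.

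Mitochondrial ribosomal protein genes were higher in 54 of 77 cases and lower in 4, with a median log2 fold change of 0.25, while the cytosolic ribosomal proteins described in the report had a median of -0.23. Of 7 genes whose symbols begin with Tdrd, encoding Tudor domain proteins, 6 were lower and 1 was not called. Tdrd5, Tdrd6 and Tdrd12 were lower by -3.39 ± 0.19, -3.53 ± 1.03 and -1.44 ± 0.07, Tdrd6 on only 8 counts in ESC. Tdrd3 and Tdrd7 were lower by only -0.22 ± 0.08 and -0.21 ± 0.09. The Tudor domain gene Tdrkh was higher by 1.19 ± 0.12. The 7 Tdrd genes had sums of 54.3 and 52.9 CPM at day 3 against 98.4 and 95.4 in ESC. Cathepsins, lysosomal proteases, were lower in 9 of 12 cases and higher in 2. Forkhead factors were lower in 23 of 36 cases and higher in 6, Foxn4 (5.56 ± 0.16) and Foxa2 (-5.07 ± 0.29) lying near the ends of the family.

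Several RNAs that carry no poly(A) tail were higher at day 3 than in ESC beside Rn45s (1.61 ± 0.51; edgeR, adjusted p = 0.0229). Rmrp was at 13.9 and 12.2 CPM against 1.27 and 1.59, and Rpph1 at 7.03 and 4.76 against 0.723 and 1.40. These 3 were higher in both day 3 libraries than in both ESC libraries.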
